A study of Arabidopsis thaliana with 14 samples.

Results

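STOMAGEN (EPFL9, AT4G12970) encodes a small secreted peptide that promotes the formation of stomata, the pores of the plant epidermis. It was read by the probe set 254794_at, which is 1 of 22746 gene probe sets on the Arabidopsis arrays of this series. The gene was chosen by its identity, with earlier results of these data known. The 14 arrays measured total RNA of seedlings at 7 dpg, with 1 array per sample. There were 4 arrays of yda seedlings and 4 of seedlings carrying YDA with an N-terminal deletion, called NdelYDA. The controls were 3 arrays of line CS9159, of the C24 ecotype, and 3 of the Ler ecotype. The series title names loss and gain of YODA function, which is how yda and NdelYDA are read here. Some NdelYDA samples are labelled as Ler and as lacking stomata, and the deletion form is marked NB89. Its promoter, the yda allele and the ecotype of yda are not stated in the sources used here, so the pairing of yda with C24 was read from the design. Mutant replicates are called biological in the labels. Control replicates are just numbered, so the spread behind their p-values may be partly technical.

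In Arabidopsis leaves STOMAGEN is made mainly by the mesophyll, the inner photosynthetic tissue, and acts on the overlying epidermis. There it competes with the related peptides EPF1 and EPF2, which inhibit stomata, for receptors of the ERECTA family and their partner TMM. The inhibitory peptides signal through the kinase YDA and a MAP kinase cascade that removes SPCH, the transcription factor that starts the stomatal lineage. STOMAGEN thus stands upstream of YDA in this pathway, and the comparisons ask whether its transcript differs when YDA activity is lost or gained.

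STOMAGEN had less transcript in yda seedlings than in any other group, and similar mean intensities in the NdelYDA, C24 and Ler seedlings. Its intensity was 332.7, 448.2, 395.2 and 412.3 in yda replicates 1 to 4. In NdelYDA replicates 1 to 4 it was 953.5, 1070.6, 936.5 and 1015.2. In C24 replicates 1 to 3 it was 1315.6, 880 and 707.4, and in Ler replicates 1 to 3 it was 994, 918.9 and 946.7. All 4 yda arrays lay below all 10 others, with the highest yda array at 448.2 and the lowest of the rest, C24 replicate 3, at 707.4. Such a separation was found for 13.3% of the 17210 probe sets tested. NdelYDA and Ler overlapped in a narrow range, while the C24 arrays reached both above and below them. No array put STOMAGEN near the low end of the signal: the 30th percentile of intensities, part of the filter on low values, was 75.1 to 85.75 over the arrays.

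**Figure D1:**
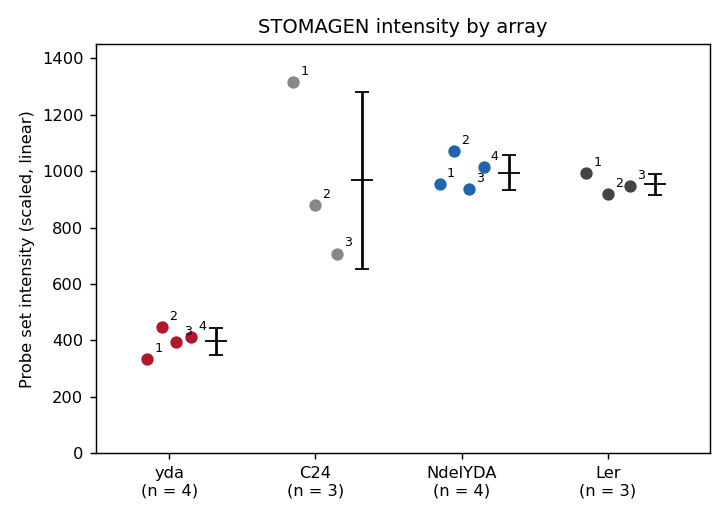
STOMAGEN probe set intensity (linear, scaled by the authors) on each array, numbered by replicate, with the group mean and SD as a bar. The 4 yda arrays sit between 332.7 and 448.2 and every other array at or above 707.4, with C24 replicate 1 the highest at 1315.6.

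The group means were 397 ± 48.3 in yda (SD, n = 4), 994 ± 61.3 in NdelYDA (n = 4), 968 ± 313 in C24 (n = 3) and 953 ± 38 in Ler (n = 3). As a share of the mean, the spread was 12.2% in yda, 6.16% in NdelYDA, 32.4% in C24 and 3.98% in Ler. In order of linear mean from low to high the groups were yda, Ler, C24 and NdelYDA. On the log2 scale of the tests Ler and C24 changed places, with 9.92 in Ler and 9.89 in C24. Ler lay above yda beyond the spread of the arrays, while Ler and C24, and C24 and NdelYDA, did not differ beyond theirs. Changes were tested with limma on log2(intensity + 16), adjusted by the Benjamini-Hochberg method over all 17210 probe sets. An adjusted p under 0.05 counted as passing.

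STOMAGEN fell in yda against C24, with a log2 change of -1.21 (SE 0.15, 95% interval -1.53 to -0.90, adjusted p = 7.8e-06), which is 2.32-fold lower. In that comparison 43.4% of all probe sets passed, with 24.4% lower and 19.1% higher in yda. Against the other groups the fall in yda was of like size. The log2 change was -1.24 against Ler (95% interval -1.55 to -0.92, limma adjusted p = 2.7e-06), where 59.7% of probe sets passed and 35.5% were lower in yda. It was -1.30 against NdelYDA (SE 0.14, limma adjusted p = 6.7e-07), where 59.3% passed and 33.6% were lower in yda. All yda arrays lay below all arrays of the other group for 23.2% of probe sets against C24, 36% against Ler and 31.4% against NdelYDA. These comparisons share the yda arrays, and those against Ler and NdelYDA may also hold a difference of ecotype. Over all probe sets the median change of yda against Ler was -0.09, or 0.03 with equal array medians, and the STOMAGEN change was then -1.12. In yda against Ler 40.5% of the calls were higher, or 52.4% with equal array medians.

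In NdelYDA against Ler the log2 change of STOMAGEN was 0.06 (SE 0.15, adjusted p = 0.82 by limma), where 32% of probe sets passed, with 15.4% higher and 16.6% lower. Its 95% interval was -0.26 to 0.38. Ler against C24 gave 0.02 (95% interval -0.31 to 0.36, limma adjusted p = 0.92), where 37.2% passed. NdelYDA against C24 gave 0.08 (95% interval -0.23 to 0.40, limma adjusted p = 0.68), where 45.4% passed. The effect of yda was different from that of NdelYDA: the yda minus C24 change less the NdelYDA minus Ler change was -1.27 (SE 0.21, adjusted p = 0.00024 by limma), in a test that 33.4% of probe sets passed.

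**Figure D2:**
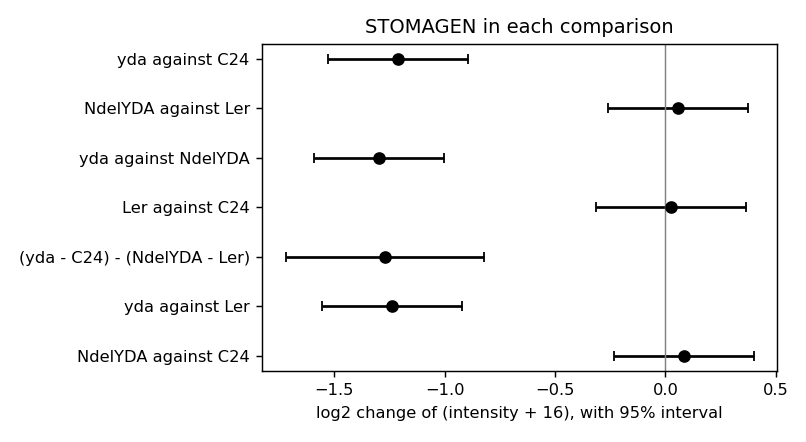
Log2 change of STOMAGEN with its 95% interval from the limma model in each comparison, the group named first over the other. The 3 comparisons of yda with another group lie between -1.30 and -1.21, and the intervals of the 3 comparisons without yda include 0.

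On the values of STOMAGEN alone, a two-sided exact permutation test gave p = 0.0286 for yda against C24, against Ler and against NdelYDA, the smallest these group sizes allow. Adjusted over the 6 pairs of groups each of these was 0.0572 by the exact permutation test. That is the lowest value that a change in just 3 of the 6 pairs can reach here. With no more than 3 such pairs this test could not pass. The exact permutation p was 0.4 for NdelYDA against Ler, 0.686 for NdelYDA against C24, and 0.9 for Ler against C24, where 0.1 is the smallest possible.

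C24 replicate 1 set much of the spread of STOMAGEN in its group. Without it the change of STOMAGEN in yda against C24 was -0.97 (limma adjusted p = 4.84e-06), and STOMAGEN was higher in NdelYDA than in C24 by 0.33 (limma adjusted p = 0.024). Its mean correlation with the other C24 arrays was 0.9777, against 0.982 and 0.981 for C24 replicates 2 and 3. The ratio of 3′ to 5′ signal of the GAPDH control probe sets, an index of RNA degradation, was 1.458 there, the highest of all arrays. The yda arrays ranged from 0.789 to 0.945 and the NdelYDA arrays from 0.992 to 1.21, against 1.02 to 1.46 for C24 and 1.05 to 1.11 for Ler. The yda arrays thus had the lowest ratio as well as the lowest STOMAGEN. Over C24 replicates 1 to 3 the ratio was 1.458, 1.123 and 1.018, in the order of STOMAGEN. In Ler, replicate 1 had the lowest ratio and the highest STOMAGEN. The part of RNA integrity in the result was not tested.

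The fall of STOMAGEN stood in the lower tail of all changes in yda. Against C24 it ranked 355 of the 17210 probe sets from the lowest change, with 2.06% lower, and 95.9% of probe sets changed less in either direction. For NdelYDA against Ler the change of STOMAGEN was close to the middle, with 59.9% of probe sets below it. By its calls, STOMAGEN was lower in yda against each of the other groups and was not called in any of the 3 pairs of those groups. The same pattern over the 6 pairs was found for 916 probe sets (5.32%). At least 2-fold lower in yda against each other group, with each call, were 259 probe sets, or 1.5%.

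**Figure D3:**
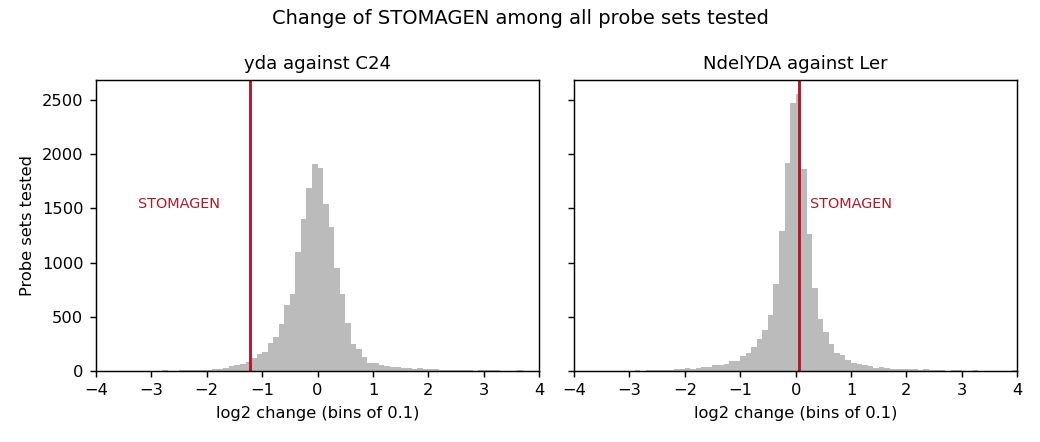
Number of the 17210 tested probe sets in each 0.1-wide bin of log2 change (axis drawn from -4 to 4), with the change of STOMAGEN as a red line. STOMAGEN lies in the lower tail for yda against C24 at -1.21 and near the middle for NdelYDA against Ler at 0.06.

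Of the stomatal lineage genes tested, SPCH and FAMA were higher in yda than in C24 and lower in NdelYDA than in Ler, unlike STOMAGEN. Of 10 listed stomatal lineage factors and polarity proteins, 4 had a probe set of their own and 3 were tested. In yda against C24, 2 of these 3 rose and none fell (median log2 change 0.80, against -0.03 for all probe sets, of which 19.1% were called higher). In NdelYDA against Ler, 2 of 3 fell (median -1.42, against -0.01 for all probe sets, of which 16.6% were called lower). SPCH had 90.5, 75, 89.7 and 125.2 in yda, against 15.5, 23.6 and 41 in C24, with no overlap. In NdelYDA it had 32.2, 25.9, 20 and 50.9, against 103.4, 139.7 and 123.1 in Ler, also with no overlap. For 18.4% of probe sets all yda arrays lay above all C24 arrays, and for 22.9% all NdelYDA arrays lay below all Ler arrays. The log2 change of SPCH was 1.40 in yda (limma adjusted p = 0.0002) and -1.55 in NdelYDA (limma adjusted p = 0.00011). The controls differed as much, with SPCH higher in Ler than in C24 by 1.73 (limma adjusted p = 6.6e-05). With the controls exchanged SPCH was not called, at -0.32 in yda against Ler and 0.18 in NdelYDA against C24. The NdelYDA and C24 values of SPCH all lay below the 30th percentile of their arrays.

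FAMA (FMA in the gene table), the factor that completes guard cell fate, had 292.8 to 364.4 in yda against 133 to 222.6 in C24. It had 71 to 98.6 in NdelYDA against 248.6 to 261.3 in Ler. Its rise in yda was 0.80 (SE 0.15, limma adjusted p = 0.00038) and its fall in NdelYDA was 1.42 (SE 0.15, limma adjusted p = 1.6e-06). With the controls exchanged FAMA kept its directions, at 0.36 in yda against Ler (limma adjusted p = 0.048) and -0.98 in NdelYDA against C24 (limma adjusted p = 5.6e-05). These 2 exchanged comparisons were not run in the alternatives for FAMA, and the first lies close to the threshold. FAMA was higher in Ler than in C24 by 0.44 (limma adjusted p = 0.037), a call lost with quantile normalization and without C24 replicate 1, among others. FAMA and SPCH thus differed between NdelYDA and Ler, where the STOMAGEN arrays overlapped. MUTE, the factor between SPCH and FAMA in the lineage, did not pass the filter: it had 24.9 to 74 in yda and 4.4 to 5 in NdelYDA, against 4.1 to 11.6 in C24 and 5.4 to 39.6 in Ler. BRXL2, listed as ATBRXL2, was not called in either comparison (-0.31 in yda and -0.18 in NdelYDA).

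The guard cell list, read beside the label of no stomata, held 15 genes, 5 of them tested. In yda against C24, 4 rose and 1 fell, beside 19.1% of all probe sets called higher and 24.4% lower. In NdelYDA against Ler 4 fell and none rose, beside 16.6% of all probe sets called lower. In yda against Ler 3 were higher and 2 lower, beside 59.7% of all probe sets called, with 35.5% lower. Centred on each gene's mean over the 14 arrays, the list's median was 0.86 to 1.23 in yda and -1.10 to -0.59 in NdelYDA, against -0.36 to 0.05 in C24 and 0.30 to 0.45 in Ler. AT5G06970, named after its values were seen, was the member that fell in yda (-0.26), and it fell in NdelYDA as well (-0.46). AT2G16630 was the member not called in NdelYDA. It had 1490.3, 1412.1, 1371.5 and 1202.9 in yda, against 271.8, 505.5 and 569.2 in C24. In NdelYDA it had 468.4, 389.6, 457.8 and 451.4, against 405.4, 400.8 and 384.4 in Ler. Its yda arrays were above all others, and the C24 arrays reached both above and below those of NdelYDA and Ler. All yda arrays lay above all arrays of the other group for 18.4% of probe sets against C24, 24.2% against NdelYDA and 24.9% against Ler. AT2G16630 rose by 1.64 in yda (SE 0.17, limma adjusted p = 1.4e-06) and its change in NdelYDA was 0.15 (SE 0.17, limma adjusted p = 0.58).

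The other 3 named guard cell genes rose in yda against C24 and fell in NdelYDA against Ler. AT1G22690 averaged 4867 ± 255 in yda against 2035 ± 677 in C24, and 347 ± 49.9 in NdelYDA against 2597 ± 83.3 in Ler. BLUS1, a kinase of blue-light opening of stomata, averaged 357 ± 49.6 in yda against 175 ± 42.7 in C24, and 59.3 ± 6.72 in NdelYDA against 210 ± 21 in Ler. CHX20, a cation/proton exchanger of guard cells, averaged 70.9 ± 16.6 in yda against 8.6 ± 3.8 in C24, and 17.8 ± 14.4 in NdelYDA against 137 ± 49.1 in Ler (SD, n = 4 for mutants and 3 for controls). For AT1G22690 and BLUS1 the directions and calls were the same with the controls exchanged. For CHX20 they were not: it was lower in yda than in Ler (-0.79, limma adjusted p = 0.036), was not called in NdelYDA against C24 (0.38), and was higher in Ler than in C24 by 2.60. All C24 and NdelYDA arrays of CHX20 lay below the 30th percentile, as did 3 of its 4 yda arrays and 1 of its 3 Ler arrays. All 4 NdelYDA arrays of BLUS1 lay below it too.

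Little else of the ligand and receptor part of the pathway could be read, since EPF1, EPF2, TMM and the ERECTA family had no probe set of 1 gene in the probe table used and are not analysed here. The same holds for YDA and the other 6 listed members of the MAP kinase cascade. Of the 10 other EPF and EPFL peptides listed, 1 was tested, AT5G10310. It had 43, 113.4, 57.1 and 96.9 in yda, against 149.5, 170.7 and 160.7 in C24, and fell by 0.98 (SE 0.23, limma adjusted p = 0.0023). In NdelYDA it had 129.1, 112, 129.6 and 90.3, against 158.5, 117.5 and 107.9 in Ler, with a change of -0.13 (limma adjusted p = 0.72). Yda replicates 1 and 3 lay below the 30th percentile, so the signal of AT5G10310 is low. The difference between its mutant effects did not pass (-0.85, limma adjusted p = 0.052), though it did in 7 of the alternatives tried (for example -1.03 without yda replicate 2, adjusted p = 0.014).

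ATSBT5.2, a subtilase that processes EPF2, was the only 1 of 10 listed receptors and proteases tested. It had 437.3 to 622.8 in yda against 266 to 314.2 in C24, and rose by 0.76 (SE 0.14, limma adjusted p = 0.0003). It had 324.6 to 458.7 in NdelYDA against 271.7 to 366.2 in Ler, a change of 0.34 (limma adjusted p = 0.068), which passed with array weights (0.36, adjusted p = 0.019), with equal array medians, in a fit of those groups alone, and without yda replicate 4, NdelYDA replicate 4 or Ler replicate 2.

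Among 13 listed light signalling genes and regulators of STOMAGEN, only HYH was tested. HYH is the close relative of HY5, a light-signalling factor that activates STOMAGEN in Arabidopsis. It had 500, 508.9, 512.3 and 500.3 in yda, against 254.4, 308.8 and 319.1 in C24, and rose by 0.76 (SE 0.11, limma adjusted p = 3.3e-05). In NdelYDA it had 314.7, 340.4, 295 and 296.8, against 118.8, 101.1 and 143.9 in Ler, and rose by 1.27 (SE 0.11, limma adjusted p = 1.7e-07). HYH thus was higher in each mutant than in the control paired with it, while STOMAGEN fell in yda and was not called in NdelYDA. The ecotypes differed in HYH as well, with Ler below C24 by a log2 change of -1.18 (limma adjusted p = 7.3e-07). With the controls exchanged HYH was higher in yda than in Ler by 1.94 (limma adjusted p = 3.1e-10). It was not called in NdelYDA against C24 (0.08, limma adjusted p = 0.55), where the arrays overlapped.

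**Figure D4:**
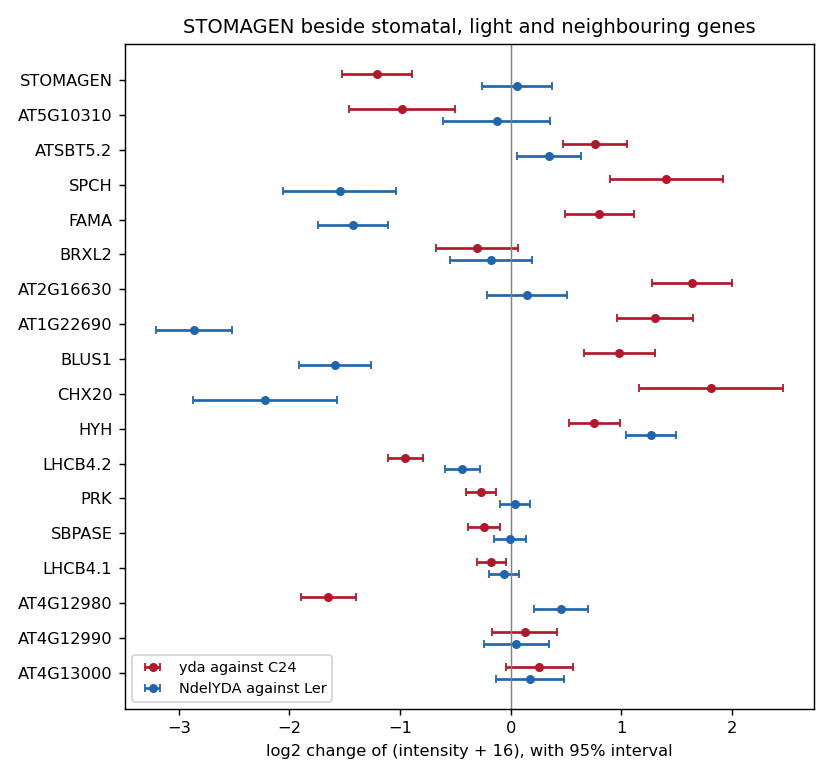
Log2 change with 95% interval from the limma model for STOMAGEN and named genes of the stomatal pathway, guard cells, light signalling, photosynthesis and the chromosome neighbourhood, in yda against C24 (red) and NdelYDA against Ler (blue). The intervals of STOMAGEN, AT5G10310, PRK, SBPASE and LHCB4.1 lie below 0 in red and include 0 in blue. Those of SPCH, FAMA, AT1G22690, BLUS1, CHX20 and AT4G12980 lie on opposite sides of 0.

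Because STOMAGEN is made in green tissue, nuclear photosynthesis genes were set beside it. Of 38 listed, 5 were tested, and 4 fell in yda against C24 (median log2 change -0.24, against -0.03 for all probe sets, of which 24.4% were called lower). With equal array medians 2 of the 5 fell. RCA, the Rubisco activase, was the member not called (-0.04). In NdelYDA against Ler 1 of the 5 fell and none rose, beside 16.6% of all probe sets called lower and 15.4% higher. LHCB4.2, an antenna protein of photosystem II, averaged 3122 ± 254 in yda (n = 4) against 6070 ± 554 in C24 (n = 3), a fall of 0.95 (SE 0.074, limma adjusted p = 5.4e-08). In NdelYDA it averaged 4648 ± 329 against 6291 ± 178 in Ler, a fall of 0.44 (limma adjusted p = 0.00023). The other falls in yda were smaller, at 0.27 for PRK (phosphoribulokinase), 0.24 for SBPASE (sedoheptulose bisphosphatase) and 0.18 for LHCB4.1. The call of LHCB4.1 was lost in 8 alternatives, among them no filter (adjusted p = 0.063), equal array medians (0.21), and the removal of yda replicate 1 or 3 or C24 replicate 2 or 3. That of SBPASE was lost with equal array medians (adjusted p = 0.057). Of 6 more photosynthesis genes taken by their symbols, 4 fell in yda against C24 (PSB27, PSAN, PSBW and PSBY, by 0.19 to 0.37), beside the 24.4% of all probe sets called lower. With equal array medians or without C24 replicate 2, 2 of the 6 fell. In NdelYDA against Ler LHCB4.3 rose by 0.63 and PSAN fell by 0.23, beside 15.4% of all probe sets called higher and 16.6% lower. The fall of PSAN was lost without Ler replicate 2. With the controls exchanged none of the 6 was called higher in NdelYDA against C24, where the highest change was 0.01. The rise of LHCB4.3 thus held against Ler only.

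Centred on each gene's mean over the 14 arrays, the median of the 5 listed photosynthesis genes was -0.23 to 0.03 in yda and -0.06 to 0.07 in NdelYDA, against 0.04 to 0.19 in C24 and -0.03 to 0.08 in Ler. For STOMAGEN the same centred values were -1.13 to -0.72 in yda and 0.32 to 0.51 in NdelYDA, against -0.08 to 0.80 in C24 and 0.29 to 0.40 in Ler. A median over several genes and the value of a single gene are not alike in spread, and LHCB4.2 alone fell by 0.95 in yda. In RNA of seedlings, fewer cells of a type and less RNA per cell cannot be told apart. A part of tissue makeup in the fall of STOMAGEN was not tested.

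Markers of other tissues were few. ACR4 (CR4 in the gene table), the only 1 of 12 epidermis genes tested, fell in yda by 0.95 (SE 0.25, limma adjusted p = 0.0063) and had -0.65 in NdelYDA (limma adjusted p = 0.059). The change in NdelYDA passed in 6 alternatives, among them without yda replicate 3 (adjusted p = 0.0067) or 4. All 4 yda arrays of ACR4 lay below the 30th percentile. SWEET11, a sucrose exporter of the phloem and the only 1 of 10 vasculature genes tested, fell in yda by 0.72 and in NdelYDA by 0.37 (limma adjusted p = 8.5e-07 and 8e-04). None of the 3 tested of 18 root genes passed in yda against C24, with EXPA7 at 0.35 (0.53 and called without C24 replicate 3, adjusted p = 0.024), EXPA18 at 0.13 and PYK10 at -0.03. In NdelYDA the root hair expansins EXPA7 and EXPA18 fell by 0.71 and 0.51 (limma adjusted p = 0.0047 and 0.015), and PYK10 had -0.11. The call of EXPA18 was lost without Ler replicate 3 (adjusted p = 0.11).

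The gene next to STOMAGEN in the TAIR10.1 gene order, AT4G12980, also fell in yda. It had 161.8, 166, 175.3 and 135.4 in yda, against 444.6, 582.1 and 582.4 in C24, with no overlap. In NdelYDA it had 579.7, 472.1, 619.6 and 584.5, against 397, 413.5 and 408.6 in Ler, again with no overlap. No overlap in these directions was found for 23.2% of probe sets in yda against C24 and for 21.1% in NdelYDA against Ler. AT4G12980 fell by 1.65 in yda (SE 0.12, limma adjusted p = 1.8e-08) and rose by 0.45 in NdelYDA (SE 0.12, limma adjusted p = 0.0063). With the controls exchanged it was lower in yda than in Ler (-1.27, limma adjusted p = 1e-07). It was not called in NdelYDA against C24 (0.07, limma adjusted p = 0.63). Ler against C24 gave -0.38 (limma adjusted p = 0.0245), a call lost without C24 replicate 2 or 3 or Ler replicate 1, 2 or 3. Within C24 the genes ran differently, since replicate 1 was the highest C24 array for STOMAGEN and the lowest for AT4G12980.

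The next genes with a probe set on that side, AT4G12990 and AT4G13000, were not called. AT4G12990 averaged 180 ± 24.3 in yda against 163 ± 21.9 in C24, and 157 ± 16.4 in NdelYDA against 152 ± 27.2 in Ler. AT4G13000 had 122 to 140.5 in yda against 84.8 to 126.5 in C24, and 124.5 to 158 in NdelYDA against 103.8 to 141.6 in Ler. The log2 changes were 0.12 and 0.05 for AT4G12990, and 0.26 and 0.17 for AT4G13000, in yda and in NdelYDA. On the other side GILT, AT4G12930 and UND did not pass the filter, with 7.7 to 96.9 over all arrays and genes. Of the 3 neighbours tested 1 fell in yda against C24, beside 24.4% of all probe sets called lower, so this count says nothing particular to the neighbourhood.

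Among 9524 other single-gene probe sets, the profiles most like that of STOMAGEN over the 14 arrays had Pearson correlations of 0.963 to 0.976 on the log2 scale. The arrays share their groups, so a correlation here mostly reads the gap between yda and the rest and is given as a description. The 8 genes were BZIP34 (0.976), a transcription factor of the bZIP family, AT1G18460 (0.974), AT3G61080 (0.973), AT2G46250 (0.969), AT1G51200 (0.967), AT4G28260 (0.967), AT2G42190 (0.965) and AT3G19620 (0.963). Over deviations from the group means they had 0.645 to 0.836, and over the 10 arrays other than yda 0.571 to 0.912. The same arrays chose the genes, so these values are no separate check. When 1 array was left out, 2 to 8 of these 8 stayed among the 8 most like, with the fewest without C24 replicate 1.

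BZIP34 had 36.4, 44.4, 25.2 and 30.5 in yda and 319.2, 277.2, 265.5 and 301.5 in NdelYDA, against 343, 250.9 and 119.4 in C24 and 256.5, 230.9 and 276.5 in Ler. Its order within C24, replicate 1 highest and 3 lowest, was that of STOMAGEN, and its yda arrays lay below the 30th percentile. AT1G18460 had 329.8, 403.8, 372.5 and 399 in yda and 1017.1 to 1092.1 in NdelYDA, against 876.7 to 1073.7 in C24 and 979.5 to 1076.6 in Ler. AT3G61080 had 380.4, 381.4, 365.7 and 406.3 in yda and lay at 913.8 or above on the other arrays, with its highest value, 1304.9, on C24 replicate 1. AT1G51200 had a smaller gap, at 3159.7 to 3581.5 in yda and 3999.6 to 4858.3 over the other arrays. AT3G19620 had 8.7 to 11.9 in yda, below the 30th percentile, and 73.6 to 141.5 over the other arrays.

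The most opposite profile was that of the guard cell list member AT2G16630, described above, at -0.984 over the 14 arrays and -0.894 over deviations from group means. AT2G27660 (-0.983), AT2G38240 (-0.975) and AT3G16670 (-0.973) followed. AT3G16670 had 4789.8 to 5489 in yda and 276.7 to 317.9 in NdelYDA, against 231.7 to 609.1 in C24 and 321.7 to 393.4 in Ler. AT2G38240 had 566.9 to 853 in yda and lay below the 30th percentile on the other arrays, at 15.5 to 75.1. C24 replicate 1 was the lowest C24 array for all 4 of these and the highest for STOMAGEN.

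**Figure D5:**
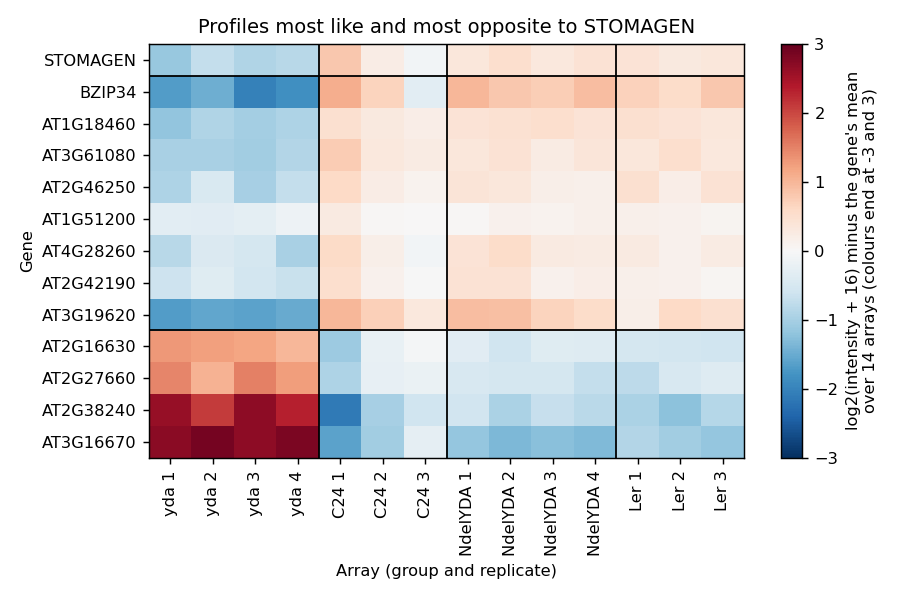
Log2(intensity + 16) of STOMAGEN, the 8 genes most like it and the 4 most opposite to it, each centred on its mean over the 14 arrays, by array. The yda columns are below the mean (blue) for STOMAGEN and the 8 like genes and above it (red) for the 4 opposite genes, and C24 replicate 1 is the reddest C24 column for STOMAGEN.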

How the data were processed

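The deposited file holds linear probe set intensities. Leaving out 2% of probe sets at each end, every array had a mean of 500, as global scaling by the authors would leave it, per the file's values. The software is not stated in the sources used here. Of 22810 probe sets, 64 array controls were left out. In the probe table used 13513 probe sets had 1 gene, and names came from these. TAIR10.1 locus tags matched 13436 and served for names and gene order.

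Probe sets above the 30th percentile of their array on at least 3 of 14 arrays were tested (17210). The deposited intensities were tested as log2(intensity + 16) with limma 3.58.1 in R 4.3.3, in 1 model of 4 group means with an intensity trend, two-sided. Log2 changes on this scale understate those of dim genes. The number of arrays limits the precision. The scripts were tested on simulated data.

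The gene, lists and tests were chosen with earlier results of these data known. List members came from memory. Of 143, 22 had a probe set of 1 gene and 21 were tested. The 6 further photosynthesis genes were added after the probe table was seen. Named were all measured pathway and light genes, up to 4 of each tissue list with the smallest p in yda against C24, the 8 most like and 4 most opposite profiles, and 3 neighbours on each side. Alternatives were other pseudocounts, no filter, quantile normalization, equal array medians, no trend, array weights, a replicate block, the compared groups alone and single arrays left out.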

Additional observations from a re-analysis of the deposited data

Results flagged for a closer look

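The effect of yda against C24 and that of NdelYDA against Ler differed, by the limma test of the difference, for 14 of 23 named genes tested, beside a share of 33.4% over all probe sets. Tissue list members were named by their p in yda against C24, a part of this difference. The count of named genes thus cannot be read as more than that share. The yda change less the NdelYDA change was -1.27 for STOMAGEN and -2.10 for its neighbour AT4G12980. Among stomatal genes it was 2.95 for SPCH, 2.23 for FAMA, 1.49 for AT2G16630, 4.16 for AT1G22690, 2.57 for BLUS1 and 4.03 for CHX20. It was -0.51 for HYH, -0.52 for LHCB4.2, -0.31 for PRK, 1.05 for EXPA7, 0.64 for EXPA18 and -0.35 for SWEET11. The difference of the effects includes the gap between the controls. Ler minus C24 was 1.73 for SPCH, 2.60 for CHX20 and -1.18 for HYH, and yda minus NdelYDA was 1.22, 1.43 and 0.67. The call was lost for HYH without Ler replicate 2 (-0.40, limma adjusted p = 0.0515), and for EXPA18 without any 1 of yda replicate 2, NdelYDA replicate 1 or 4, C24 replicate 1, or Ler replicate 1 or 3 (0.46 to 0.65, limma adjusted p = 0.0504 to 0.0892).

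A single array stood far from the rest of its group in 3 of 78 checks (38 genes and the GAPDH ratio, each in yda and in NdelYDA), where chance gives about 1 in 20. GILT was at 19 on NdelYDA replicate 2 and at 40.4 to 44.6 on the others. UND was at 96.9 on yda replicate 2 and at 62.3 to 67.6 on the others. AT4G13000 was at 158 on NdelYDA replicate 3 and at 124.5 to 128.5 on the others. No array of yda or NdelYDA stood apart in this way for STOMAGEN, and groups of 3 were not examined.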

How the results depend on the processing

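The fall of STOMAGEN in yda kept its call in all 23 alternatives against C24 (-1.41 to -0.97), against NdelYDA (-1.35 to -1.20) and against Ler (-1.30 to -1.12), and the difference of the mutant effects in all 22 (-1.47 to -1.03). With a replicate block the changes were -1.23 in yda against C24, 0.04 in NdelYDA against Ler and 0.02 in Ler against C24, and the block changed no call of STOMAGEN. It moved the number of probe sets called to 7171 in yda against C24 (7470 without it) and 5110 in NdelYDA against Ler (5503 without it). Deviations of same-numbered samples correlated at -0.16 to 0.16 over 19 pairs, 2 of them over 0.1, both of C24 with Ler. These low values do not show whether same-numbered samples were handled together. NdelYDA against Ler was called in none (0.02 to 0.09), nor was Ler against C24 (-0.17 to 0.27). NdelYDA against C24 ran from -0.12 without C24 replicate 3 to 0.33 without C24 replicate 1, which is the single array whose removal gave a call. With quantile normalization or equal array medians 6 of the 8 most like genes stayed among the 8. With single arrays left out it was 2 to 8, with 2 without C24 replicate 1, 3 without C24 replicate 3 and 5 without yda replicate 1, 3 or 4. Of 2487 values for other genes, 61 lost their call, 36 gained one and none reversed, and of 1040 counts 18 moved by over 1.5 times. The C24 control rests on 3 arrays that differ widely for STOMAGEN.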
